A study of Mus musculus with 6 samples.

Results

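The 7 genes described here, Atoh1, Sox2, Isl1, Insm1, Piezo2, Chga and Syp, are widely used to recognise Merkel cells. They were chosen by name, and each was read by a single probe set that names no other gene, so all 7 of 7 were measured among 30063 genes. Total RNA came from epidermal sheets of mouse embryos of stage E18.5, near birth. The 3 Rptor cKO sheets came from embryos with a conditional knockout of Rptor, which encodes Raptor, the mTORC1 subunit that recruits its substrates. The other 3 sheets were wild type and came from littermates. The sources used here do not give the Cre line, the cells in which it acts or the deleted exons. The sheets were lifted from the dermis with ammonium thiocyanate, so they hold the whole epidermis, in which Merkel cells are rare. The array values are log2 signals per probe set, and a difference of 1 on this scale is a 2-fold change. All differences are Rptor cKO minus wild type.

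Merkel cells are touch receptors of the basal epidermis that contact sensory nerve endings, in touch domes of hairy skin and in whisker follicles. They arise from epidermal progenitors. Atoh1, a basic helix-loop-helix factor, is required for them to form, and Sox2 and Isl1 act with it during their maturation. The mature cell opens the mechanically gated channel Piezo2 when pressed, and carries dense-core granules with chromogranin A and small vesicles with synaptophysin, as neuroendocrine cells do.

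Two-sided tests were made with limma across all genes, and a gene is said to rise or fall where its p adjusted by Benjamini-Hochberg was under 0.05. Of the 7 genes, 2 fell, Atoh1 and Chga, and none rose in limma. The background was 5.96% of all genes lower, 3.64% higher and 9.60% changed in either direction. No member rose at an unadjusted p under 0.05 either, and none rose with an ordinary linear model or with a trended and robust prior. The ordinary model, which has no variance moderation, called only 8 genes in all. Its lack of calls, here and for the lists below, therefore carries no weight. The groups of 3 arrays did not overlap for 2 of the 7 genes, with Rptor cKO lower in both. Over all genes the groups did not overlap for 29.0%, and with Rptor cKO lower for 12.5%. The median difference of the 7 was 0.009, beside 0.05 for all genes. The other 5 genes did not pass the test. In sheets of mixed cells, fewer cells of a type and less RNA per cell cannot be told apart.

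The targeted gene, Rptor, read 6.54, 6.82 and 6.72 in the Rptor cKO sheets (arrays 1 to 3, in this order throughout) and 6.98, 7.46 and 7.0 in the wild-type sheets (arrays 4 to 6), with no overlap. Its difference of -0.46 (SE 0.15) missed the threshold in limma (adjusted p = 0.0988). By Xist and Y-linked genes, Rptor cKO arrays 1 and 3 came from females and the other 4 arrays from males. Without Rptor cKO array 2, genotype and sex therefore cannot be told apart. The probe sets whose identifiers mark them as negative controls had medians from 3.81 to 4.11, highest on Rptor cKO array 1. That median is used below as a guide to dim signal and not as a limit of detection. The 95th percentile of these controls was 7.46 to 8.07. Of the 7 genes, only Chga on wild-type arrays 4 and 5 lay above that of its array. Over all genes, 1791 were lower and 1095 higher in Rptor cKO, and 1563 and 1457 after quantile normalization of the deposited values.

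Atoh1, the factor that starts the Merkel cell programme, was lower in Rptor cKO. It read 4.94, 4.89 and 4.93 in Rptor cKO and 5.43, 5.66 and 5.71 in wild type. All Rptor cKO arrays lay below all wild-type arrays, and the lowest wild-type value was 0.492 above the highest Rptor cKO value. The means were 4.92 ± 0.024 and 5.60 ± 0.15 (SD, n = 3 each). The fall was 1.60-fold, a difference of -0.68 (SE 0.10, 95% interval -0.91 to -0.45, limma adjusted p = 0.00663). Of the 1791 genes that fell, 1146 had a larger fall than Atoh1. The wild-type values lay above 75.2% to 79.2% of the negative control probe sets of their array, and the Rptor cKO values above 63.7% to 68.8%. Both female arrays were Rptor cKO. With embryo sex as a term, the difference therefore rests on Rptor cKO array 2 against the wild-type arrays. Atoh1 then differed by -0.71 and did not pass (adjusted p = 0.0740). The male arrays alone make the same comparison, and the difference was also -0.71. There a lone Rptor cKO array is assumed to vary like the wild type. Where a call is lost in either setting, an effect of sex and the loss of arrays cannot be told apart.

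Chga encodes chromogranin A, a core protein of dense granules, and it fell further than Atoh1. It read 6.15, 6.22 and 6.52 in Rptor cKO and 8.79, 7.75 and 7.44 in wild type. The groups did not overlap, and the wild-type arrays were spread widely, with array 4 the highest. The means were 6.30 ± 0.20 and 7.99 ± 0.71 (SD, n = 3 each). The fall was 3.24-fold, a difference of -1.69 (SE 0.30, 95% interval -2.39 to -1.0, limma adjusted p = 0.0124), and 276 genes of the 1791 that fell had a larger fall. Without wild-type array 4 the difference was -1.3 (adjusted p = 0.0035). Without Rptor cKO array 2, the lone male of its group, it was -1.66 and did not pass (adjusted p = 0.063). Nor did it pass with sex as a term (-1.77, adjusted p = 0.111). With the male arrays alone the difference was also -1.77. Wild-type array 4, the highest for Chga, was the lowest wild-type array for Atoh1, so the 2 genes did not share their order within the wild type.

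**Figure D1:**
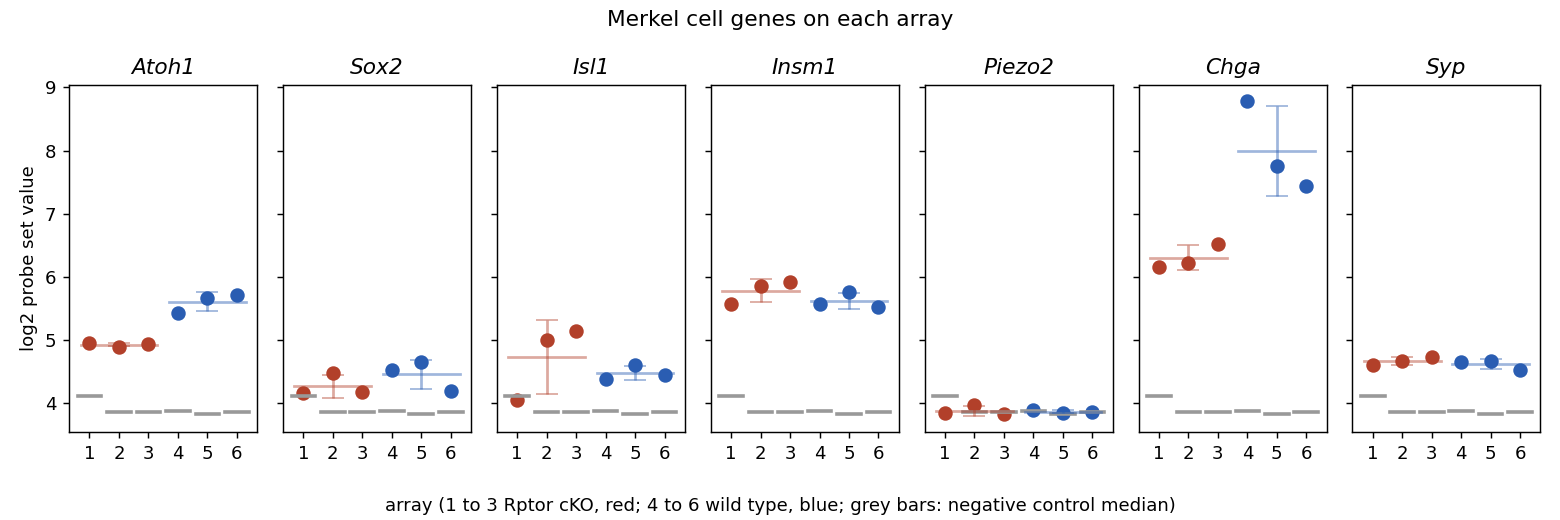
Log2 probe set value (vertical axis) of each Merkel cell gene on each array, with Rptor cKO arrays 1 to 3 in red and wild-type arrays 4 to 6 in blue. Pale lines and bars are the group mean and SD, and grey bars are each array's negative control median. For Atoh1 and Chga all red points lie below all blue points, and for the other 5 genes the colours overlap.

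The stretches around the starts of the 2 genes that fell are shown because both genes fell. They are RefSeq windows of build GRCm38.p6, from 250 bases before the annotated start to 50 after it, on the plus strand, chr6:64728875-64729174 for Atoh1 and chr12:102554691-102554990 for Chga. Capitals mark E-box letters, CANNTG, the motif to which factors of the Atoh1 class bind as dimers.
Atoh1: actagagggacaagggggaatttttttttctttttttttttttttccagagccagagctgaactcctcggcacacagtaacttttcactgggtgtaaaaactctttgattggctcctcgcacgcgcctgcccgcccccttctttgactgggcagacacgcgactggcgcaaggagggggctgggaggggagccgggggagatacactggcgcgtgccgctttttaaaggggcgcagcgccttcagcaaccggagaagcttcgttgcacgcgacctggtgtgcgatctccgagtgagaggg
Chga: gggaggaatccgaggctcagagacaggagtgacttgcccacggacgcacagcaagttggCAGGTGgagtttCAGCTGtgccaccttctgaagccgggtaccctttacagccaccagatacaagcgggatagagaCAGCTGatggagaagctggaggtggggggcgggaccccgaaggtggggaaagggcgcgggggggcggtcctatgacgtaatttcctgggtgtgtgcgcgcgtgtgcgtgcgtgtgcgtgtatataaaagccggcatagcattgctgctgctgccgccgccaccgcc
The Chga window held 3 matches to CANNTG, which begin 191, 179 and 116 bases before the start, and the last 2 of these read CAGCTG. The Atoh1 window held none. Matches on either strand to CANNTG were found in 72.3% of 32851 such windows and matches to CAGCTG, which also count as CANNTG, in 16.3%. The letters GGGCGG, a GC box, were found in both windows, 120 bases before the start of Atoh1 and 90 and 55 bases before that of Chga, and in 35.7% of all windows. Neither CAGCACC nor GGACAG, short pieces of the element that the neuronal repressor REST binds, was found in either window, against 7.14% and 22.2% of all windows. A window was given for 5 of the 7 genes. Among the others, Isl1 held 1 CAGCTG, Sox2 1 CANNTG that reads CACATG, and Syp no CANNTG. A match is a description of the letters and no evidence of binding.

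Sox2, a high-mobility-group factor that acts upstream of Atoh1 in Merkel cells and also marks dermal papillae, read 4.15, 4.47 and 4.17 in Rptor cKO and 4.52, 4.64 and 4.19 in wild type. The groups overlapped, with wild-type array 6 among the Rptor cKO values. The difference was -0.19 (SE 0.14, 95% interval -0.52 to 0.14, limma adjusted p = 0.490). Its sign turned with the male arrays alone and with sex as a term (0.023 in both). The values lay above 50.7% to 64.0% of negative control probe sets.

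Isl1, a LIM homeodomain factor of sensory and neuroendocrine cells, had the widest spread of the 7 genes between the Rptor cKO arrays (SD 0.59, n = 3). It read 4.05, 5.00 and 5.14 in Rptor cKO and 4.38, 4.60 and 4.44 in wild type, so that array 1 lay below every wild-type array and arrays 2 and 3 above. The difference was 0.26 (SE 0.26, 95% interval -0.32 to 0.84, limma adjusted p = 0.604). Without Rptor cKO array 1 it was 0.60 and passed as higher (adjusted p = 0.0292). Array 1 was the one on which Isl1 lay under the negative control median. The Isl1 values lay above 49.1% to 71.8% of negative control probe sets.

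Insm1, a zinc-finger factor of neuroendocrine cells, read 5.56, 5.85 and 5.91 in Rptor cKO and 5.56, 5.76 and 5.52 in wild type, with overlap. The difference was 0.16 (SE 0.12, 95% interval -0.12 to 0.44, limma adjusted p = 0.482). The Insm1 values lay above 72.4% to 81.2% of negative control probe sets. Insm1, Isl1, Chga and Syp, 4 of the 7 genes, were lowest within the Rptor cKO group on array 1 and highest on array 3.

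Piezo2, the touch channel, was as dim as the controls. It read 3.83, 3.97 and 3.82 in Rptor cKO and 3.89, 3.84 and 3.85 in wild type. These values lay above 44.6% to 52.3% of negative control probe sets, and 2 of the 3 Rptor cKO values lay under the control median. The difference of 0.0086 (SE 0.088, 95% interval -0.19 to 0.21, limma adjusted p = 0.970) turned its sign with array medians subtracted (-0.024) and with quantile normalization (-0.055). At this signal a change of Piezo2 RNA was not detectable, and absence of the channel is not shown.

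Syp, synaptophysin of small vesicles, read 4.60, 4.67 and 4.72 in Rptor cKO and 4.65, 4.67 and 4.52 in wild type, with overlap. The difference was 0.048 (SE 0.090, 95% interval -0.16 to 0.26, limma adjusted p = 0.800). Its values lay above 58.2% to 65.5% of negative control probe sets. Syp lies on the X chromosome, and the arrays from female embryos, at 4.60 and 4.72, lay on both sides of the male Rptor cKO array.

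**Figure D2:**
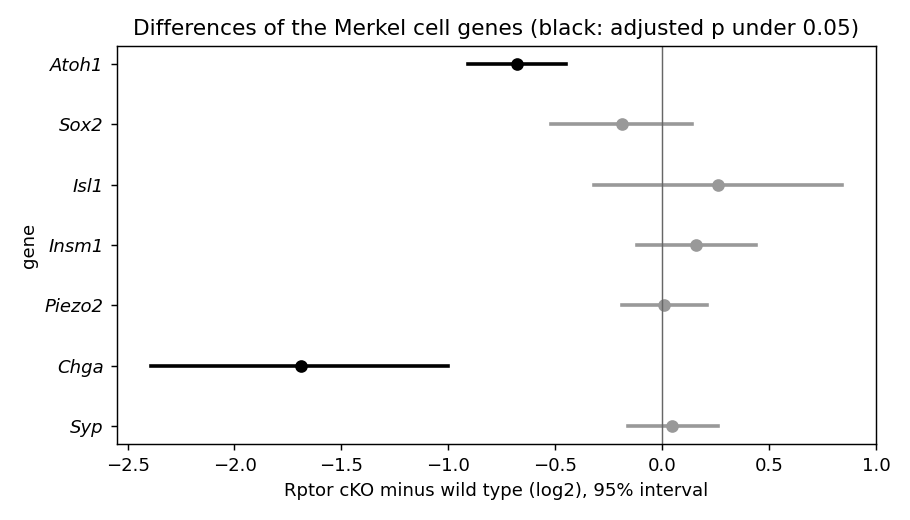
Difference of each Merkel cell gene, Rptor cKO minus wild type as log2 units (horizontal axis), with its 95% interval from limma (n = 3 arrays per group). Black marks the genes with adjusted p under 0.05. The intervals of Atoh1 (-0.91 to -0.45) and Chga (-2.39 to -1.0) lie below 0, and the other 5 hold 0.

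**Figure D3:**
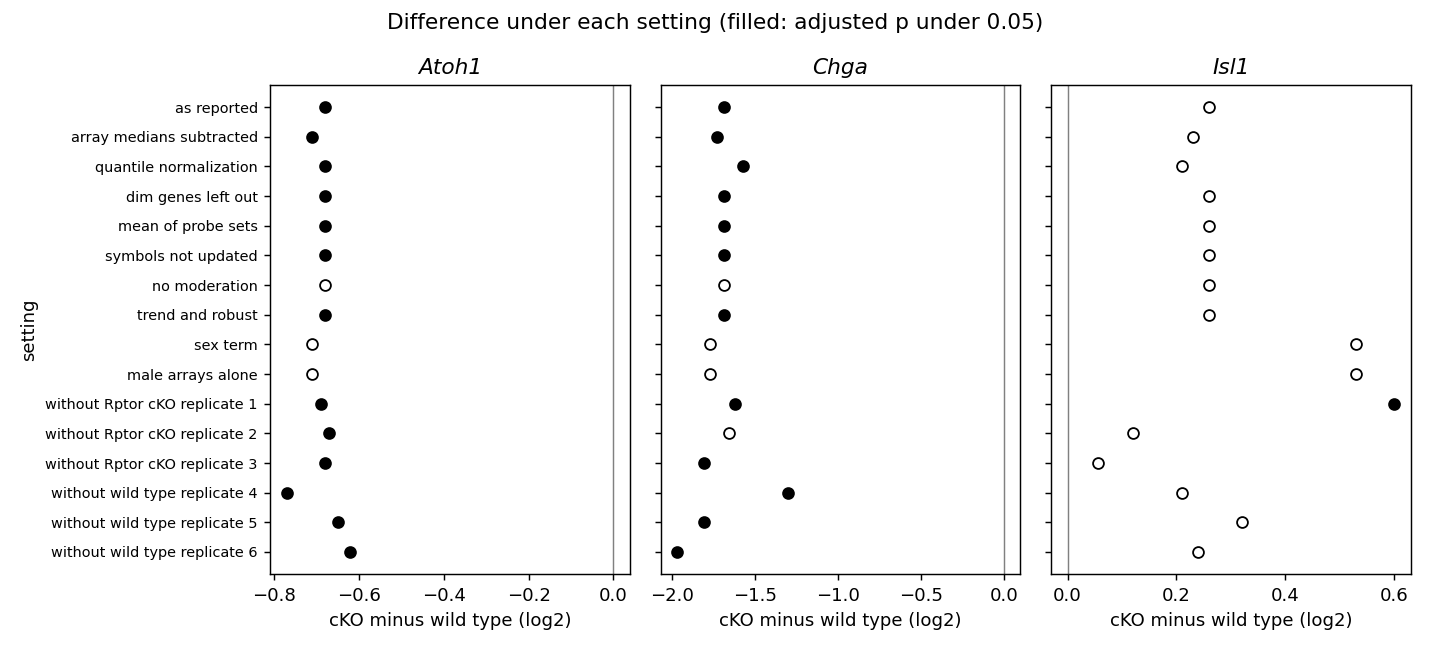
Difference of Atoh1, Chga and Isl1 (horizontal axis, log2) under the reported setting and each alternative (vertical axis). Filled points have adjusted p under 0.05. Atoh1 stays between -0.77 and -0.62 and Chga between -1.97 and -1.3, while Isl1 runs from 0.055 to 0.60 with a filled point where Rptor cKO array 1 is left out.

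None of the 11 measured paralogs of the 7 genes passed the test in limma, and none had an unadjusted p under 0.05. Ordinary and trended robust fits also called none. Chgb, the other chromogranin, differed by 0.12 (SE 0.11), in contrast to the fall of Chga, and lay under the control median on 1 array of each group. Atoh8 and Atoh7, of the Atoh1 family, differed by -0.35 (SE 0.18) and 0.13 (SE 0.10). Piezo1, the channel that keratinocytes use, differed by -0.007 (SE 0.22). Insm2 differed by 0.21 (SE 0.15), Isl2 by 0.12 (SE 0.13), Sox1 by 0.052 (SE 0.10) and Sox3 by 0.059 (SE 0.11). The synaptophysin relatives Synpr, Sypl and Sypl2 differed by 0.00069, 0.053 and 0.052.

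Keratins of simple type are a further mark of Merkel cells. Krt20, the most specific of them, read 3.95, 4.09 and 4.02 in Rptor cKO and 4.08, 4.35 and 4.18 in wild type, close to the control median, and differed by -0.18 (SE 0.10, limma adjusted p = 0.331). Krt8 differed by 0.14 (SE 0.12). Krt18, its partner, rose by 0.43 (SE 0.088, adjusted p = 0.0205), opposite in sign to Atoh1. Of 5 keratins, Krt18 was the single one called, and the median was 0.38. Krt18 did not pass without Rptor cKO array 1 (adjusted p = 0.0545), 2 (adjusted p = 0.0713) or 3, or without wild-type array 4 or 5. Nor did it pass with sex as a term (adjusted p = 0.207). Krt8 and Krt18 are also made by periderm and gland cells.

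Of 7 further transcription factors, none passed in limma or in the ordinary and trended robust fits, and 1 had an unadjusted p under 0.05. That was Nhlh1, a helix-loop-helix factor of neuronal precursors, with 3.96, 4.11 and 3.80 in Rptor cKO against 4.2, 4.29 and 4.2 in wild type, a difference of -0.28 (SE 0.10, adjusted p = 0.149). Rest differed by 0.18 (SE 0.10, adjusted p = 0.324). Gfi1, which Atoh1 switches on in sensory cells, differed by 0.013 (SE 0.12) and was chosen for mention after its value was seen.

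Granule and peptide genes were mostly level, with 2 of 15 lower and none higher in limma, and a median of 0.022. The count of rises was also 0 at an unadjusted p under 0.05 and in the ordinary and trended robust fits. Cpe, the carboxypeptidase that trims peptide hormones, read 6.54, 6.95 and 7.34 in Rptor cKO and 9.09, 8.23 and 8.44 in wild type. It fell 3.12-fold (-1.64, SE 0.25, adjusted p = 0.00748), with no overlap, but did not pass with sex as a term (adjusted p = 0.0887). Penk, the precursor of enkephalins, which Merkel cells store, read 7.14, 6.92 and 7.04 against 7.55, 8.07 and 7.84. It fell 1.73-fold (-0.79, SE 0.14, adjusted p = 0.0114). It did not pass without Rptor cKO array 2 (adjusted p = 0.0614) or with sex as a term (adjusted p = 0.0789). Scg2, Scg3, Pcsk1, Tac1 and Tph1 lay under the control median on all 6 arrays.

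Among 28 genes of vesicles and release, 1 fell and none rose in limma (median 0.071). At an unadjusted p under 0.05, 2 were lower and 1 higher. The trended robust fit called 1 lower and none higher, and the ordinary fit called none. Rab3b, a small GTPase of secretory vesicles, read 4.64, 4.90 and 5.18 in Rptor cKO and 6.18, 5.76 and 5.49 in wild type. It fell by 0.90 on the log2 scale (SE 0.19, adjusted p = 0.0248). It did not pass without Rptor cKO array 1 (adjusted p = 0.0691) or 2 (adjusted p = 0.0981). Nor did it pass without wild-type array 5 or with sex as a term (adjusted p = 0.184). As with Chga and Cpe, wild-type array 4 was the highest. Of 15 genes of neuronal structure, Ncam1, an adhesion molecule, rose 2.38-fold (1.25, SE 0.17, adjusted p = 0.00493), with 8.24, 7.85 and 7.77 in Rptor cKO and 6.38, 6.90 and 6.82 in wild type. Ncam1 did not pass with sex as a term (adjusted p = 0.0771) or with the male arrays alone (adjusted p = 0.0508). None of the 15 fell in limma, also at an unadjusted p under 0.05 and in both other fits.

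**Figure D4:**
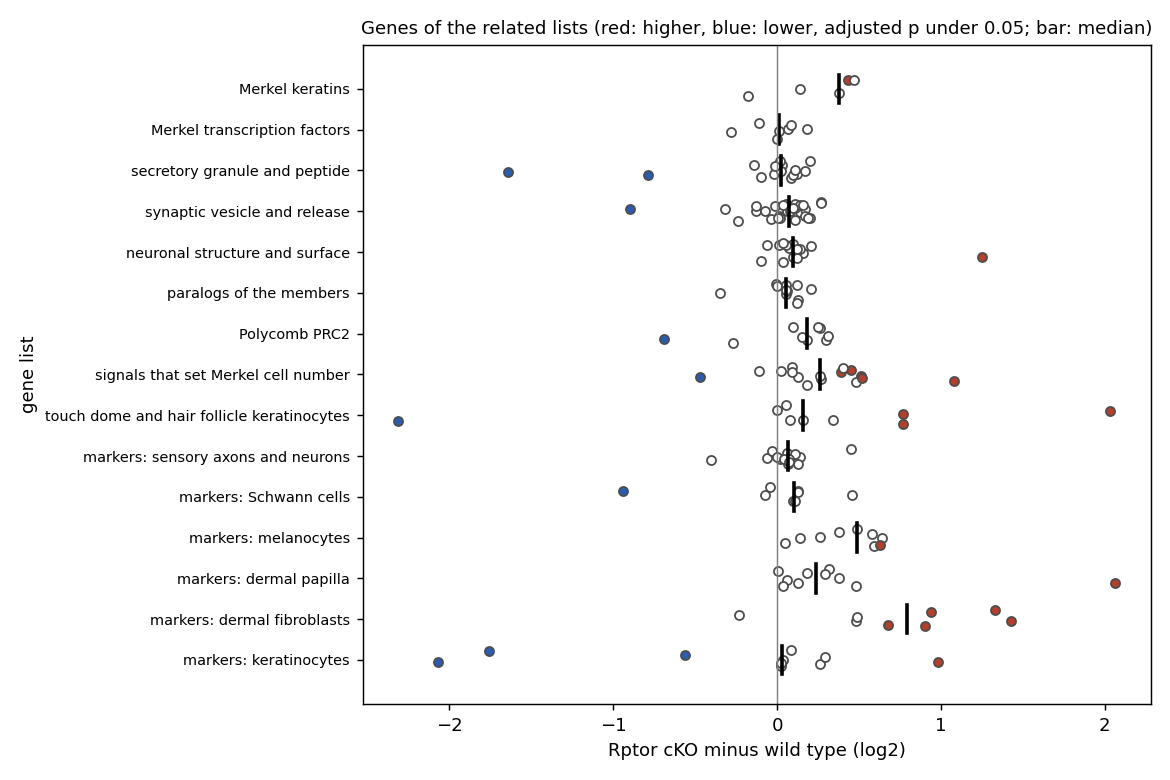
Difference of each gene, Rptor cKO minus wild type as log2 units (horizontal axis), in the 15 related lists (vertical axis). Red points rose and blue points fell at adjusted p under 0.05, open points did not pass, and black bars are list medians. Most genes of the granule, vesicle and neuron lists sit near 0, with Cpe, Penk and Rab3b to the left and Ncam1 to the right.

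Signals that set the number of Merkel cells act in the surrounding epidermis. Of 16 such genes, 5 rose and 1 fell (median 0.27). Edar, the ectodysplasin receptor, rose 2.12-fold (1.08, SE 0.14, adjusted p = 0.00384), and its adaptor Edaradd fell by 0.47 (SE 0.10, adjusted p = 0.0251). Nog, an inhibitor of bone morphogenetic proteins, rose by 0.52 (SE 0.11, adjusted p = 0.0275), and Gli2, a hedgehog effector, by 0.39 (SE 0.089, adjusted p = 0.0297). Shh differed by 0.18 (SE 0.20) and did not pass. The list held 0 rises and 0 falls in limma with sex as a term (6 and 1 at an unadjusted p under 0.05), and 1 rise and 0 falls with the male arrays alone. It held 1 rise and 0 falls without Rptor cKO array 2, and 2 or 3 rises and at most 1 fall without any other array. Polycomb complex PRC2 restrains Merkel cell genes in epidermal progenitors. Of its 9 genes Ezh1, a catalytic subunit, fell by 0.69 (SE 0.15, adjusted p = 0.0246), a call lost without Rptor cKO array 1 (adjusted p = 0.0682) or 2 (adjusted p = 0.109), and without wild-type array 5 or 6. Ezh2, the other catalytic subunit, differed by 0.26 (SE 0.15, adjusted p = 0.373).

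Among 9 genes of touch dome and follicle keratinocytes, 3 rose and 1 fell. Krt17, a keratin of touch dome columnar cells and follicles, rose by 0.77 (SE 0.18, adjusted p = 0.0370), and Lgr6, a receptor of follicle progenitors, by 0.77 (SE 0.12, adjusted p = 0.00746). Plet1 rose by 2.03 (SE 0.22, adjusted p = 0.00207), and Krt15, of basal and bulge cells, fell by 2.31 (SE 0.35, adjusted p = 0.00687). Krt17 did not pass with array medians subtracted, without Rptor cKO array 2 or 3, or without any 1 of the wild-type arrays.

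Markers of other cell types, of the epidermis and of dermis or nerve, were read beside these genes. Of 14 markers of sensory axons and neurons none passed in limma, with 1 lower and 1 higher at an unadjusted p under 0.05, and their mean log2 value was 4.45 to 4.59 on Rptor cKO arrays and 4.41 to 4.52 on wild-type arrays. The trended robust fit called 1 of them lower and the ordinary fit none. The smallest p was that of P2rx3, an ATP receptor of sensory axons, at -0.40 (SE 0.11, adjusted p = 0.0510), followed by Runx1 at 0.45 (SE 0.14, adjusted p = 0.0807). Of 8 Schwann cell markers, Erbb3 alone was called, with a fall of 0.94 (SE 0.17), while Sox10 differed by 0.10 (SE 0.13). The Erbb3 call was lost without Rptor cKO array 2 (limma adjusted p = 0.0569) and with sex as a term. Of 9 melanocyte genes Kit rose by 0.63 (SE 0.14), and the list mean was 7.01 to 7.55 against 6.55 to 7.19. The Kit call was lost without Rptor cKO array 2 or 3, without wild-type array 5 and with sex as a term. Of 10 dermal papilla genes Wif1 rose by 2.06 (SE 0.14), and of 8 dermal fibroblast genes 5 rose, among them Dcn by 0.94 (SE 0.11), Lum by 1.43 (SE 0.28) and Dpt by 1.33 (SE 0.34). The fibroblast list had a mean of 6.27 to 6.87 on Rptor cKO arrays and 5.78 to 5.99 on wild-type arrays. It held 1 rise without Rptor cKO array 2 or wild-type array 6. It held 2 without Rptor cKO array 1 or wild-type array 5, with sex as a term, with array medians subtracted or with quantile normalization. It held 4 without wild-type array 4 and 7 without Rptor cKO array 3. At an unadjusted p under 0.05 in limma, 7 of the 8 were higher with any 1 array left out. Of 10 keratinocyte genes 3 fell, Krt1 by 2.07 (SE 0.39), Krt10 by 1.76 (SE 0.35) and Dsp by 0.56 (SE 0.13), and Itgb4 rose by 0.98 (SE 0.11). None of the 3 falls was called without Rptor cKO array 2 or without wild-type array 6. The part of these shifts in the falls of Atoh1 and Chga was not tested.

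Of the 24 called genes that are named from the lists, 9 kept their call whichever array was left out, namely Cpe, Dcn, Edar, Itgb4, Krt15, Lgr6, Ncam1, Plet1 and Wif1. The calls kept numbered 16, 9 and 19 of 24 without Rptor cKO array 1, 2 and 3. They numbered 20, 15 and 15 without wild-type array 4, 5 and 6. Rptor cKO array 2 was the lone male of its group, so without it genotype and sex coincide. With sex as a term 7 of the 24 calls were kept, those of Dcn, Itgb4, Krt1, Krt10, Lgr6, Plet1 and Wif1. With a trended and robust prior 21 were kept, and without moderation 0. Of the 9 genes, Cpe (adjusted p = 0.0887), Edar (adjusted p = 0.0564), Krt15 (adjusted p = 0.0748) and Ncam1 (adjusted p = 0.0771) did not pass with sex as a term. With array medians subtracted 22 calls were kept, without Krt17 and Dpt, and with quantile normalization 22, without Dpt and Ezh1. The trended and robust prior lost Dpt, Dsp and Gli2. All 24 kept their sign in every alternative that was run.

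Genes with the profile most like each member were found by Pearson r over the 6 arrays. Candidates were brighter on average than the control median and ranged over the arrays by at least 0.5 or by as much as the member. Predicted genes, RIKEN clones, microRNA and small RNA were left out by their symbols. This pattern also removed some named genes, such as those whose symbols begin with Rn. For Chga the nearest candidates were Slc27a4, the fatty acid transporter of the skin barrier, and Arhgef10l (r = 0.999 each), and 607 of 6847 candidates had r over 0.95. For Atoh1 they were Cyp3a13 (r = 0.997) and Wdr7 (r = 0.996), with 221 candidates over 0.95. All 4 of these genes fell, with differences of -1.42 for Slc27a4, -0.81 for Arhgef10l, -1.59 for Cyp3a13 and -0.51 for Wdr7. For Insm1 the nearest was its own paralog Insm2 (r = 0.992), followed by Ubald1 (r = 0.989). The nearest genes of Isl1 were Fam222a and Sdk2 (r = 0.984 and 0.981), and those of Syp were Prrt4 and Tmem143 (r = 0.993 and 0.989). Sox2 and Piezo2 had the least close neighbours, Maff (r = 0.958) and Tmem171 (r = 0.945) for Sox2 and Il11 (r = 0.970) and Tor1b (r = 0.962) for Piezo2. These values of r describe 6 arrays in 2 groups and nothing beyond them.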

How the data were processed

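The labels' protocols give biotin-labelled total RNA of 6 epidermal sheets, prepared with TRIzol and RNeasy and the Ambion Expression WT kit. The authors deposited a log2 value for each probe set. RMA, Partek and mm10 are named in the submitters' processing notes, and the sources used here give no versions. RMA makes array distributions alike, which hides a general shift of RNA content and compresses changes of dim probe sets. Slides and scans are not named in the sources used here, so batches were not tested.

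Of 72688 probe sets, 30604 named 1 gene through the platform annotation, with 1135 symbols updated by Entrez ID or synonym. They gave 30063 genes, each by its probe set of highest mean. Array pairs correlated at 0.988 to 0.993 within groups and 0.961 to 0.986 between groups across genes, and no arrays were identical. Differences were fitted with limma 3.58.1 (lmFit, eBayes) under R 4.3.3 on all 6 arrays with genotype as the sole term, and checked on simulated data. SE and 95% intervals are moderated. The labels call the samples biological replicates. A permutation of 3 against 3 arrays cannot go below p = 0.1. Python 3.11.15, pandas 2.3.3 and matplotlib 3.10.9 were used for the rest. Named list genes are up to 3 called genes of smallest p in each direction, or the 2 of smallest p where none was called, and all measured paralogs, with Krt8, Krt20, Shh, Ezh2 and Sox10 added after their values were seen. Scg2, Scg3, Pcsk1, Tac1 and Tph1 are named as the granule genes under the control median on every array. Members and lists were chosen with earlier results of these data known.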

Additional observations from a re-analysis of the deposited data

How the results depend on the processing

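No paired analysis was possible because the replicate numbers in the labels, 1 to 3 and 4 to 6, are not shared between the groups. In the reported fit 2886 genes changed. The count was 8 without variance moderation, 643 with sex as a term and 867 with the male arrays alone, and 900 to 2444 with 1 array left out. Member genes called lower numbered 2, and 0 in each of those 3 settings (no moderation, sex term, male arrays alone), and 1 to 2 with 1 array left out. Member genes called higher numbered 0, and 0 to 1 with 1 array left out. Without moderation Atoh1 had adjusted p = 0.102 and Chga adjusted p = 0.169. The sign of Piezo2 turned to -0.024 with array medians subtracted, -0.055 with quantile normalization, and ran from -0.04 to 0.035 with 1 array left out, below 0 without Rptor cKO array 2 or wild-type array 5 (-0.0025). That of Sox2 turned to 0.023 with sex as a term and 0.023 with the male arrays alone. Piezo2 was left out of the fit without dim genes. Over 15 alternatives each, Atoh1 kept its call in 12 and Chga in 11. Both genes have a single probe set, so the mean of probe sets and the symbols without update could not change their values. Leaving out dim genes did not change their values either. The calls kept in these settings are therefore no separate checks. The sex term and the male arrays alone both compare Rptor cKO array 2 with the wild type, so they are not separate checks. Dim signal limits Piezo2 and the granule genes under the control median. It also limits Sox2, Isl1 and Syp, whose values lay in the middle range of the negative controls. The same limit holds for Atoh1 in Rptor cKO, where its values lay above 63.7% to 68.8% of the controls, within the range of Isl1. The number of arrays limits every interval.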
